A study of Mus musculus with 28 samples.

Results

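Il1a and Il1b are the genes of interleukin 1 alpha and interleukin 1 beta, and they were followed in dendritic cells before and after exposure to lipopolysaccharide. The members were the rows named Il1a and Il1b, 2 of 3147 genes with RNA values and 2 of 6250 genes with ribosome footprint values. Il1rn, the gene of their natural antagonist, had a row in both tables and was described beside them. The cells were grown with GM-CSF at 20 ng per ml from bone marrow of female C57BL/6J mice aged 6 to 8 weeks. They received lipopolysaccharide (LPS) of Escherichia coli K12 at 100 ng per ml, or no stimulus in the mock arm. Polyadenylated RNA was sequenced at 0 h and at 1, 2, 4, 6, 9 and 12 h in each arm, 26 libraries in 13 groups of 2 replicates. Another 2 libraries held ribosome footprints of unstimulated cells treated briefly with cycloheximide. No group carried a gene deletion or transgene, and all RNA groups had their medium replaced at 0 h as part of protein labelling. Nothing in the labels tells whether both replicates were grown from different mice or in different cultures, and the p-values below therefore rest on a spread that may be technical.

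Interleukin 1 alpha and beta are inflammatory cytokines that bind the same receptor, Il1r1 with its partner Il1rap, and signal through Myd88 to NF-kB. Interleukin 1 beta is made as an inactive precursor that caspase-1 cleaves in the inflammasome, whereas the precursor of interleukin 1 alpha is already active. The antagonist made from Il1rn occupies the receptor without signalling. In myeloid cells the genes are known for rapid induction through Toll-like receptors, and LPS is the ligand of Tlr4.

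Levels are given in TPM, a value per transcript length that sums to 1000000 in each library, so the depth of each library is unknown and levels of different genes can be compared. Differences are in log2 of TPM plus 1, fitted with limma, and a gene was called when its p-value, adjusted by Benjamini and Hochberg over all 3147 genes, was under 0.05. The cell type label was checked against markers. RNA values existed for 7 of 17 dendritic cell markers, Itgax and the class II genes H2-Aa and H2-Ab1 among them, and their summed level was 11566 to 23100 TPM in mock and 8968 to 25504 TPM in LPS libraries. RNA of 8 of 15 macrophage or monocyte markers summed to 11600 to 43835 TPM in mock and 8345 to 40302 TPM in LPS. Most of that was Lyz2, at 10485 to 41633 TPM in mock and 7298 to 36487 TPM in LPS. RNA of 7 of 15 neutrophil markers summed to 2492 to 11097 TPM and 1165 to 8678 TPM. Ranges of single markers lay higher in LPS for some and lower for others. Cd14 was at 84.6 to 380 TPM in mock and 322 to 2234 TPM in LPS, and Fscn1 at 46.5 to 195 and 112 to 486 TPM. Mrc1 was at 233 to 386 TPM in mock and 19.3 to 350 TPM in LPS, and Clec10a at 141 to 322 and 4.76 to 221 TPM. In these bulk samples, fewer cells of a type and less RNA per cell cannot be told apart. Of B cell and of T and NK cell markers, 0 had a row in either table. Of 6 mast cell and basophil markers, 0 had RNA values, and Prss34 had footprints of 19.0 and 13.1 TPM in replicates 1 and 2. A missing row does not show that a cell type was absent. Tnf, for example, also lacked RNA values and had footprints of 44.0 and 35.1 TPM.

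The promoters of Il1a and Il1b are shown because both genes moved from low to very high levels together. RefSeq places both genes on the minus strand of chromosome 2 with 0 other protein-coding genes between them. Each line holds the 250 bases before the RefSeq start, 5′ to 3′ on the gene's strand, in build GRCm38.p6, which is not the build of the expression values. Capitals mark matches to the motifs searched on both strands.
Il1a, chr2:129309973-129310222, minus strand: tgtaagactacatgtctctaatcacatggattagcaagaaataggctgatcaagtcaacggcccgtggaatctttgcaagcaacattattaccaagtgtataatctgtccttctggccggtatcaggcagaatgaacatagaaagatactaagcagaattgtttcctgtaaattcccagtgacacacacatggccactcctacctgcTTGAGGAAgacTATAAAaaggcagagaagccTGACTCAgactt
Il1b, chr2:129371140-129371389, minus strand: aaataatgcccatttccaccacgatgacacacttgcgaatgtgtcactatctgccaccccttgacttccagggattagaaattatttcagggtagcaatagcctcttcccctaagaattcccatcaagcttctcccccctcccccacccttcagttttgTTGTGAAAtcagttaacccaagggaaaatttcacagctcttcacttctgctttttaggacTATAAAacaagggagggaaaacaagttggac
The windows searched ran from 250 bases before to 50 after the start. Both promoters held the TATA box TATAAA, starting at -32 in Il1a and at -31 in Il1b, and 13.6% of all 32851 RefSeq windows of the same length held it. Both also held the C/EBP motif TTNNGNAA, found in 40.7% of windows, at -43 in Il1a and at -91 in Il1b. The Il1a window added the AP-1 motif TGANTCA at -12 (7.81% of windows) and the PU.1 motif GAGGAA at -41 (28.3% of windows), which overlaps its C/EBP match. The NF-kB consensus, in 8.46% of windows, had no match in these letters. The 3 annotated Il1rn windows held 1 AP-1 match in the first and 3 C/EBP matches in each of the others, windows that overlap each other, with TATAAA on the opposite strand in the last. A match is a description of the letters and not a site of binding.

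Before stimulation, RNA of Il1a and Il1b was present at modest levels and that of Il1rn at higher ones. At 0 h Il1a stood at 84.5 TPM in replicate 1 and 35.0 TPM in replicate 2. Il1b stood at 142 and 83.7 TPM in the same libraries, and Il1rn at 319 and 198 TPM. Both libraries had the order Il1rn, Il1b, Il1a, and each gene was higher in replicate 1.

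Mock cells kept levels of this order over the whole course. Il1a was 59.0 and 85.8 TPM at 1 h, 64.8 and 46.2 TPM at 2 h, 123 and 62.4 TPM at 4 h, 95.6 and 22.6 TPM at 6 h, 62.5 and 48.2 TPM at 9 h and 37.0 and 24.5 TPM at 12 h, in replicates 1 and 2. Il1b was 178 and 137 TPM at 1 h, 239 and 67.4 TPM at 2 h, 293 and 116 TPM at 4 h, 177 and 70.9 TPM at 6 h, 130 and 111 TPM at 9 h and 108 and 64.2 TPM at 12 h. The 4 h group had the highest mean of the unstimulated groups for all 3 genes, and the 12 h group the lowest for Il1a and Il1b. Il1rn was 299 and 283 TPM at 1 h, 401 and 214 TPM at 2 h, 544 and 343 TPM at 4 h, 481 and 218 TPM at 6 h, 436 and 233 TPM at 9 h and 337 and 199 TPM at 12 h. Against 0 h, the log2 differences of mock groups ran from -0.83 (12 h) to 0.68 (4 h) for Il1a, from -0.38 to 0.75 for Il1b and from 0.04 to 0.78 for Il1rn. None was called by limma, and neither was any other gene (0.00% of 3147 genes at each of the 6 times, with 25 to 70 genes at an unadjusted p under 0.05). These 6 comparisons share the 0 h libraries.

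LPS raised Il1a and Il1b to among the most abundant transcripts of the table within 1 h, and the levels stayed high to 12 h. Il1a reached 3419 and 1879 TPM at 1 h, 4434 and 3140 TPM at 2 h, 4398 and 2357 TPM at 4 h, 4624 and 3554 TPM at 6 h, 4288 and 1173 TPM at 9 h and 3020 and 1669 TPM at 12 h. The lowest LPS library, replicate 2 at 9 h, was still far above the highest mock library of Il1a. Il1b reached 7496 and 4097 TPM at 1 h, 9512 and 6569 TPM at 2 h, 9217 and 6639 TPM at 4 h, 10207 and 7374 TPM at 6 h, 9170 and 4141 TPM at 9 h and 7473 and 5019 TPM at 12 h. Among 3147 genes, Il1b ranked between 8 and 40 in the LPS libraries and between 512 and 1685 in mock libraries. Il1a ranked between 28 and 154 in LPS libraries and between 1091 and 2655 in mock libraries. LPS and mock libraries did not overlap at any time for either gene.

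**Figure D1:**
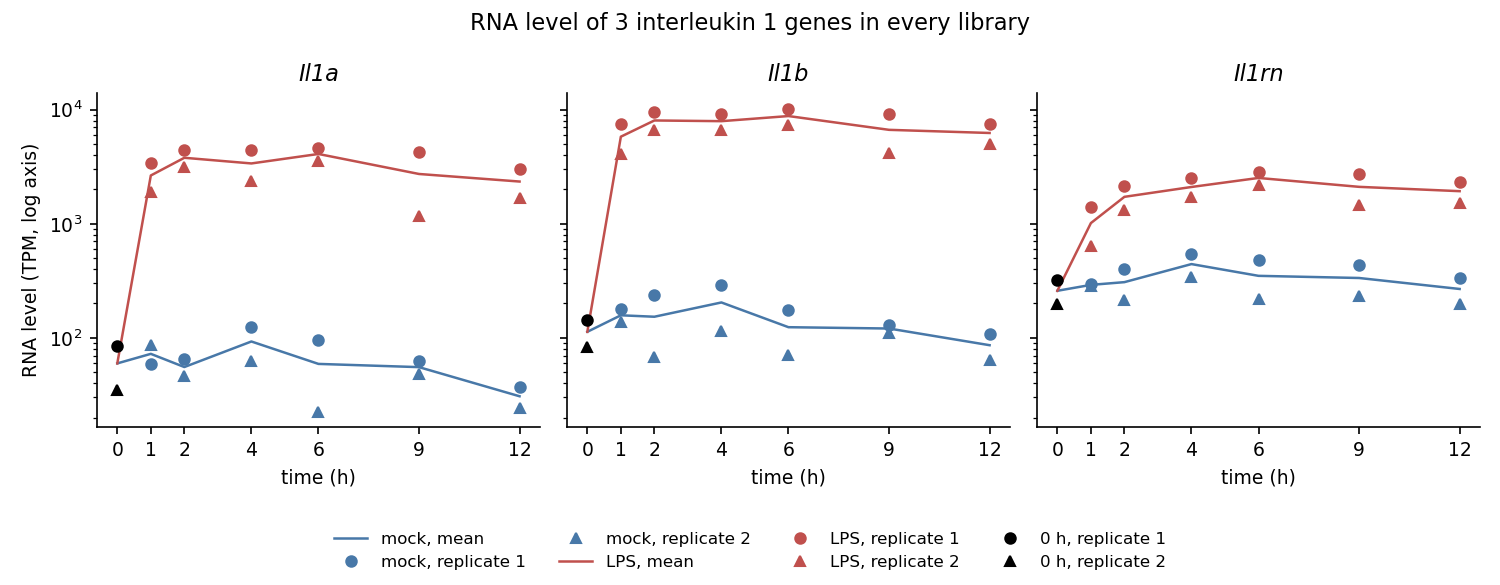
RNA level in TPM on a log axis against time in hours for Il1a, Il1b and Il1rn, with circles for replicate 1, triangles for replicate 2 and lines through the group means. Black symbols are 0 h, blue mock and red LPS, and every LPS library lies above every mock library for each gene.

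In the fit, Il1a was higher in LPS than in mock cells by 5.14 ± 0.66 (log2, SE) at 1 h, 6.07 ± 0.66 at 2 h, 5.18 ± 0.66 at 4 h, 6.41 ± 0.66 at 6 h, 5.33 ± 0.66 at 9 h and 6.17 ± 0.66 at 12 h, with adjusted p-values from 9.8e-07 to 9.2e-05 (limma). The differences of Il1b were 5.14 ± 0.60, 5.95 ± 0.60, 5.40 ± 0.60, 6.26 ± 0.60, 5.67 ± 0.60 and 6.18 ± 0.60 at the same times, with adjusted p-values from 4.3e-07 to 3.2e-05. Both genes were therefore called at 6 of 6 times. Calls higher in LPS covered 3.27% of all genes at 1 h, 6.39% at 2 h, 8.74% at 4 h, 11.2% at 6 h, 10.1% at 9 h and 10.0% at 12 h. Leaving out 1 library moved the 103 genes of 1 h to between 47, without mock replicate 1, and 159, without LPS replicate 1, and to 65 without LPS replicate 2. At 1 h, Il1b had the second and Il1a the third highest log2 difference of the 3147 genes, and from 2 h to 12 h both ranked between 7 and 15. As ratios of mean TPM, Il1a was 36.6, 68.3, 36.4, 69.2, 49.3 and 76.2 times the mock mean at the 6 times. Il1b was 36.8, 52.5, 38.8, 70.9, 55.1 and 72.5 times the mock mean. From 1 h to 12 h the mock mean went from 72.4 to 30.7 TPM for Il1a and from 158 to 86.2 TPM for Il1b. The LPS mean went from 2649 to 2344 TPM for Il1a and from 5796 to 6246 TPM for Il1b. The log2 difference was positive within each replicate number at every time, from 4.44 to 7.24 for Il1a and from 4.89 to 6.68 for Il1b.

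**Figure D2:**
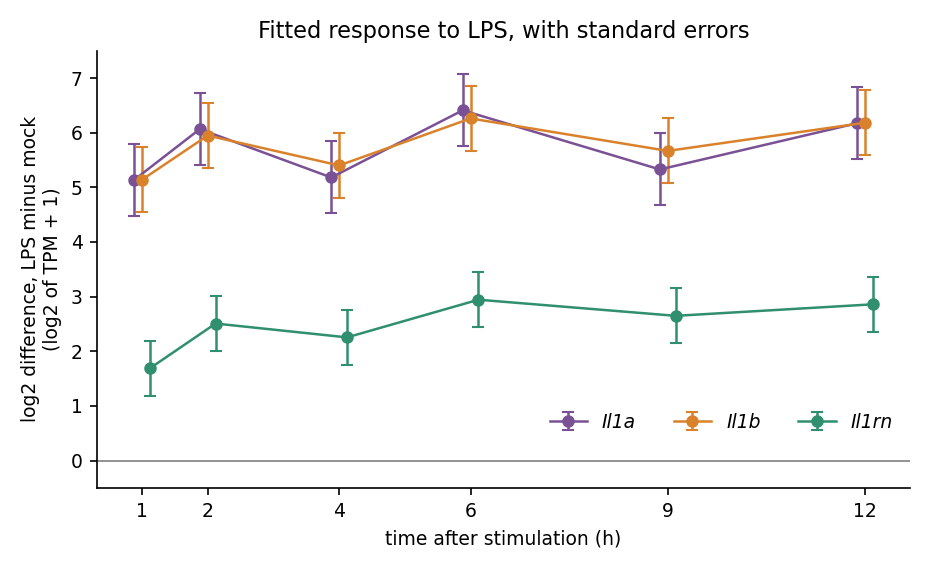
Fitted log2 difference of LPS minus mock (log2 of TPM plus 1) against time in hours, with standard errors as bars. Il1a and Il1b run together between 5.14 and 6.41, and Il1rn lies between 1.69 and 2.94.

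The differences of Il1rn were smaller and, at 1 h, not called. It stood at 1394 and 634 TPM at 1 h, 2135 and 1308 TPM at 2 h, 2500 and 1700 TPM at 4 h, 2868 and 2174 TPM at 6 h, 2752 and 1460 TPM at 9 h and 2339 and 1521 TPM at 12 h of LPS. At 1 h the difference from mock was 1.69 ± 0.50 (95% interval 0.62 to 2.75) and was not called (limma, adjusted p = 0.066), although both LPS libraries exceeded both mock libraries. From 2 h on Il1rn rose by 2.51 ± 0.50, 2.25 ± 0.50, 2.94 ± 0.50, 2.65 ± 0.50 and 2.86 ± 0.50, with adjusted p-values from 0.00019 to 0.0025. Over the 6 times together, the F test of limma called all 3 genes, with adjusted p-values of 2.3e-09 for Il1a, 5.4e-10 for Il1b and 2.1e-06 for Il1rn, beside 57.2% of all genes.

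Within the LPS arm, the libraries of neighbouring times overlapped for all 3 genes. The 6 h group had the highest mean for all 3 genes, 4089 TPM for Il1a, 8791 TPM for Il1b and 2521 TPM for Il1rn. At 1 h the means were already 64.8% of that for Il1a and 65.9% for Il1b, and 40.2% for Il1rn. At 12 h they were 57.3%, 71.1% and 76.6%. In the order of group means, neighbours among the 6 LPS groups overlapped for all 3 genes. The first gap lay between the lowest LPS group and mock at 4 h. Groups further apart could separate, as the 1 h and 6 h groups of Il1a and of Il1rn did. The unstimulated groups also overlapped their neighbours in the order, except mock at 9 h and at 12 h for Il1a.

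No step between consecutive LPS times was called for any of the 3 genes by limma. The widest were the step of Il1a from 6 h to 9 h, -0.85 ± 0.66 with an adjusted p of 0.91, and that of Il1rn from 1 h to 2 h, 0.83 ± 0.50 with an adjusted p of 0.44. Without replicate 2 at 9 h the first was 0.08, and without replicate 1 it was -1.79. Over all genes, calls covered 5.02% from 1 h to 2 h, 10.4% from 2 h to 4 h, 0.350% from 4 h to 6 h, 0.254% from 6 h to 9 h and 0.191% from 9 h to 12 h. These shares depended on single libraries. From 1 h to 2 h, 70 genes were called higher and 88 lower, and leaving out any 1 of the 4 libraries gave 39 to 110 and 19 to 100. From 2 h to 4 h the counts were 99 and 228, and 32 to 65 and 85 to 165 without any 1 library. From 4 h to 6 h they were 2 and 9, and 0 in both directions without any 1 library. The 8 genes higher from 6 h to 9 h became 2 to 8, and the 6 from 9 h to 12 h became 0 to 8. The late response, the mean of 9 h and 12 h, minus the early response, the mean of 1 h and 2 h, was 0.15 ± 0.66 for Il1a, 0.38 ± 0.60 for Il1b and 0.66 ± 0.50 for Il1rn. None of these was called, with adjusted p-values of 0.90, 0.68 and 0.37, while 25.9% of all genes were. A p-value above the threshold does not show that the early and late responses were equal.

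The ratio of Il1b to Il1a overlapped between the arms. The ratio of their TPM within a library was 1.46 at the lowest, 2.34 in the median and 3.69 at the highest over 12 mock libraries, and 2.07, 2.19 and 3.53 over 12 LPS libraries. At 0 h it was 1.68 and 2.39. LPS libraries exceeded mock libraries by 0.05 in mean log2 ratio, and an exact two-sided permutation test within times gave p = 0.738 over 46656 relabelings. Leaving out single libraries moved the difference between -0.06 and 0.16, with p-values of 0.22 or more.

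The ratio of antagonist to cytokine RNA separated the arms. Il1rn RNA amounted to 1.41 and 1.67 times the sum of Il1a and Il1b at 0 h and to 1.26 to 2.33 times in the 12 mock libraries. In the 12 LPS libraries it amounted to 0.106 to 0.275 times, below every unstimulated library. Group means in LPS were 0.117 at 1 h, 0.144 at 2 h, 0.186 at 4 h, 0.196 at 6 h, 0.240 at 9 h and 0.225 at 12 h. The 4 libraries of 1 h and 2 h lay between 0.106 and 0.153, and the 4 libraries of 9 h and 12 h between 0.204 and 0.275, without overlap. Mock group means also rose, from 1.27 at 1 h and 1.60 at 2 h to 1.86 at 9 h and 2.28 at 12 h. The mock libraries of 1 h and 2 h, at 1.26 to 1.89, overlapped those of 9 h and 12 h, at 1.46 to 2.32. These ratios compare levels per transcript length and are given as a description, with no test.

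**Figure D3:**
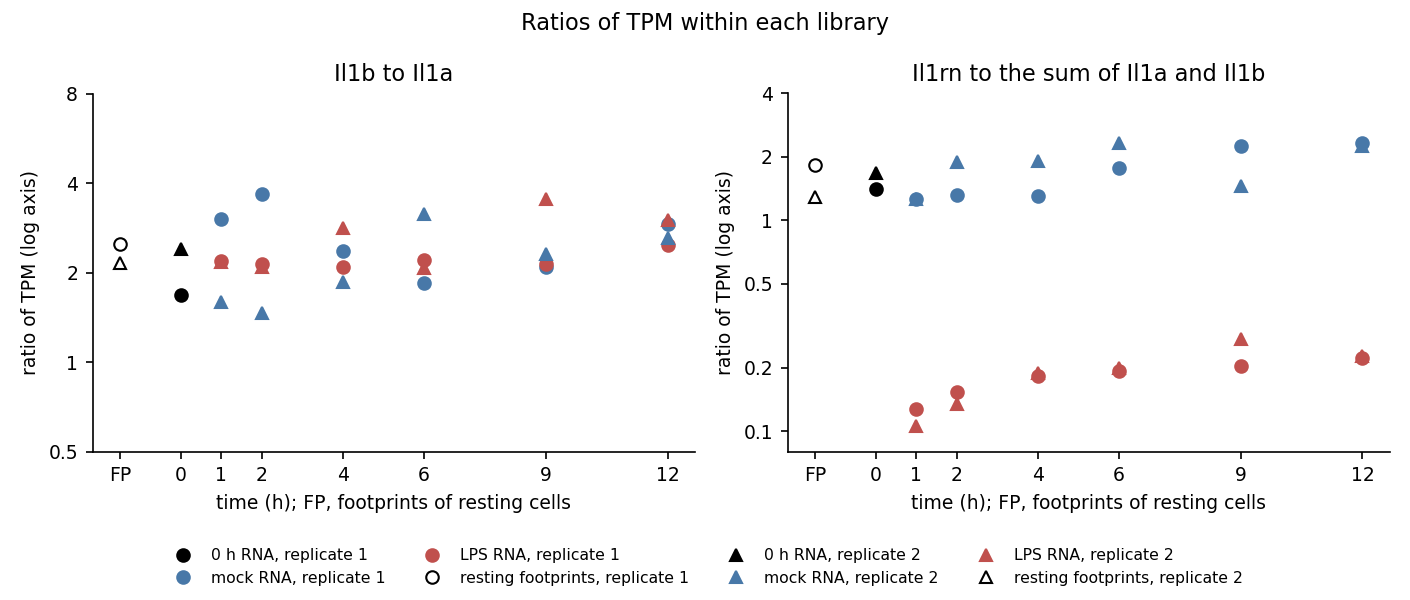
Ratio of TPM within each library on a log axis against time in hours, Il1b to Il1a on the left and Il1rn to the sum of both on the right, with circles for replicate 1 and triangles for replicate 2. The left ratio stays between 1.46 and 3.69 in both arms, and the right ratio is 0.106 to 0.275 in LPS and at least 1.26 in mock libraries.

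Ribosome footprints, the mRNA fragments that ribosomes protect, were measured only in resting cells. Footprint levels of Il1a were 37.7 and 61.1 TPM, of Il1b 94.4 and 132 TPM and of Il1rn 241 and 248 TPM in replicates 1 and 2. The order of the genes was that of their RNA at 0 h, and footprint and RNA libraries overlapped for each gene in these levels. The totals of 1000000 cover 3147 genes in RNA and 6250 genes in footprints, so these levels are not on the same scale. The footprint ratio of Il1b to Il1a was 2.50 and 2.16, and that of Il1rn to their sum 1.83 and 1.29. With the median of 2739 shared genes set to 0 in every library, footprints exceeded RNA by 0.66 ± 0.42 for Il1a, 0.86 ± 0.31 for Il1b and 0.79 ± 0.28 for Il1rn (log2, SE). None was called by limma, with adjusted p-values of 0.26, 0.081 and 0.076, beside 26.7% of shared genes called. That share is 374 genes higher and 356 lower in footprints, and it moved with each library left out. The counts were 1146 and 909 without replicate 1 of 0 h, 874 and 723 without replicate 2, 75 and 148 without footprint replicate 1, and 78 and 149 without footprint replicate 2.

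The footprint comparison rested on which 0 h library was used. Without replicate 1 of 0 h the differences were 1.21, 1.18 and 1.07 with adjusted p-values of 0.00035, 0.00013 and 6.4e-05, and without replicate 2 they were 0.10, 0.55 and 0.52 with adjusted p-values of 0.72, 0.025 and 0.013. In these fits the lone 0 h library is assumed to vary like the footprint libraries. Without centring the differences were -0.18, 0.03 and -0.04.

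**Figure D4:**
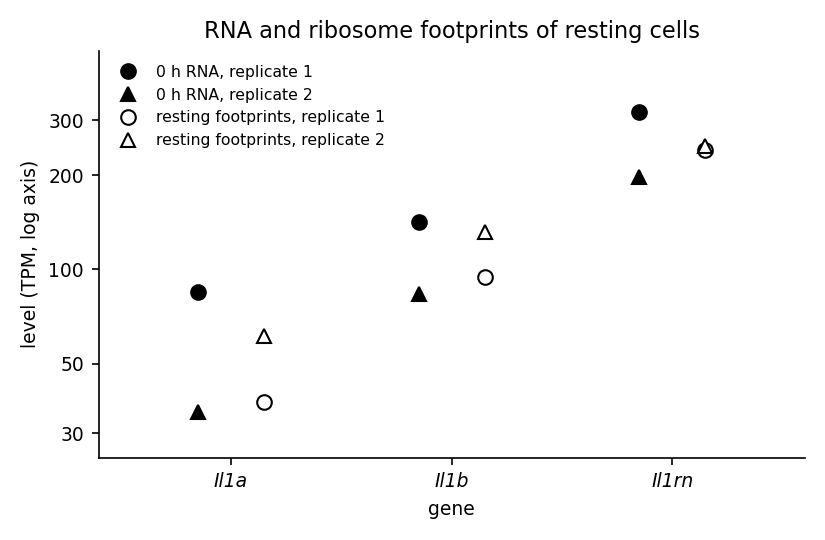
Level in TPM on a log axis of Il1a, Il1b and Il1rn in resting cells, with filled symbols for 0 h RNA, open symbols for footprints, circles for replicate 1 and triangles for replicate 2. RNA is higher in replicate 1 for each gene, footprints are higher in replicate 2, and the ranges overlap. The totals behind RNA and footprint levels cover different sets of genes.

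The genes differed between the replicates in a regular way. Replicate 1 exceeded replicate 2 in 13 of 13 RNA groups for Il1b and Il1rn and in 12 of 13 for Il1a, whose exception was mock at 1 h. The median ratio of replicate 1 to replicate 2 was 1.81 for Il1a, 1.68 for Il1b and 1.63 for Il1rn, and the highest was 4.24 for Il1a in mock cells at 6 h. Of all 3147 genes, 9.85% were higher in replicate 1 in all 13 groups and 20.2% in at least 12. The summed levels of the dendritic cell, the macrophage or monocyte and the neutrophil markers were also higher in replicate 1 in 13 of 13 groups, and their part in the levels of the interleukin genes was not tested.

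The genes with patterns most like these were found by Pearson's correlation of log2 levels over the 13 group means, among 3122 genes with a group mean of at least 10 TPM. The points share the arms, so a correlation mostly reflects the step between mock and LPS. Il1a and Il1b correlated with each other at r = 0.999 and with Il1rn at 0.971 and 0.976. Slfn2 came first for both, at 0.989 with Il1a and 0.995 with Il1b, and its group means were 661 to 760 TPM in mock and 2589 to 3282 TPM in LPS. Tank, Irg1 and Ehd1 were also among the first 5 for both genes, with Nfkb1 for Il1a and Mndal for Il1b completing them. The first 5 for Il1rn were Nampt at 0.994, Gbp5;Gbp1, Cd40, Slc7a2 and BC006779, which shared no gene with the others. Irg1, the enzyme that makes itaconate and now named Acod1, went from group means of 53.4 to 97.6 TPM in mock to 1772 to 4727 TPM in LPS.

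Of the 21 listed names of interleukin 1 family ligands and receptors, 4 had RNA values. Besides the 3 genes above this was Il1f9, the row of interleukin 36 gamma, an epithelial and myeloid cytokine. Il1f9 stood at 77.0 and 61.6 TPM in mock and 352 and 395 TPM in LPS at 1 h, and at 103 and 78.1 TPM in mock and 84.1 and 64.3 TPM in LPS at 6 h. It rose by 2.42 ± 0.38 at 1 h (limma, adjusted p = 0.00081) and by 1.66 ± 0.38 at 2 h (adjusted p = 0.0070), and was not called from 4 h on. The difference was -0.28 ± 0.38 at 6 h (adjusted p = 0.58) and 0.91 ± 0.38 at 12 h (adjusted p = 0.075). Median-ratio rescaling gave 0.14 at 6 h, which was not called, and at 12 h Il1f9 rose under both rescalings of the libraries, by 1.27 (adjusted p = 0.016) and, with quantile normalization, by 1.12 (adjusted p = 0.043).

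In the list for processing and release of interleukin 1, Nlrp3 rose from 1 h on and Casp1 and Serpinb9 from 2 h on. Of 29 listed, 15 had RNA values, of which 1 rose and 0 fell at 1 h, and 5 rose and 4 fell at 6 h, with a median of -0.03 and -0.28 beside -0.05 and -0.44 over all genes. Over all genes 3.27% rose and 0.794% fell at 1 h, and 11.2% rose and 30.0% fell at 6 h. The share of these listed genes that fell at 6 h was near that of all genes. The 25 genes that fell at 1 h became 3 to 170 when 1 library was left out. Nlrp3, the sensor of the inflammasome, stood at 79.0 and 85.4 TPM in mock and at 518 and 395 TPM in LPS at 1 h. It rose by 2.45 ± 0.23 (log2, SE) at 1 h, 2.24 ± 0.23 at 2 h and 1.10 ± 0.23 at 12 h. Casp1, the protease that cleaves interleukin 1 beta, was 46.2 and 52.0 TPM in mock and 232 and 286 TPM in LPS at 6 h. Its difference was 0.14 ± 0.23 at 1 h, which was not called, and it rose by 0.99 ± 0.23 at 2 h, 2.37 ± 0.23 at 6 h and 2.64 ± 0.23 at 12 h. Serpinb9, a serpin known as an inhibitor of granzyme B and caspase-1, rose from 2 h on, by 3.14 ± 0.37 at 12 h. At 6 h Casp8, a death receptor caspase, rose by 1.42 ± 0.35 and Gsdmd, the pore-forming gasdermin D, by 1.30 ± 0.33. Pycard, the adaptor that joins Nlrp3 to caspase-1, fell by 1.63 ± 0.30 at 9 h and by 1.88 ± 0.30 at 12 h, to 83.4 and 79.0 TPM against 344 and 265 TPM in mock. Card9, an adaptor of C-type lectin receptors, fell by 2.29 ± 0.26 at 4 h.

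In the receptor signalling list, the genes that rose at 1 h were 3 NF-kB subunits and Sqstm1. Of 38 listed, 18 had RNA values, of which 4 rose and 0 fell at 1 h, and 7 rose and 4 fell at 6 h, with medians of 0.36 and 0.51. Over all genes 3.27% rose and 0.794% fell at 1 h, 11.2% rose and 30.0% fell at 6 h, and the medians were -0.05 and -0.44. Rel rose by 3.33 ± 0.70 at 1 h and 1.85 ± 0.70 at 6 h, Nfkb1 by 1.52 ± 0.26 and 1.75 ± 0.26, and Relb by 1.32 ± 0.17 and 0.81 ± 0.17, all subunits of NF-kB. Nfkb2, a further subunit, was not called at 1 h, with 1.17 ± 0.35. It rose from 2 h on, by 2.06 ± 0.35 at 2 h and by 2.24 ± 0.35 at 6 h, the largest change of this list at 6 h. Sqstm1, a scaffold of Traf6, rose by 1.18 ± 0.24 at 1 h, and Irak3, a kinase homologue that restrains the receptor complex, rose by 1.12 ± 0.27 at 6 h. Myd88, the adaptor of the receptor, rose by 1.36 ± 0.41 at 6 h. Irak4, the kinase that Myd88 recruits, fell by 0.86 ± 0.18 at 2 h, and Mapk14, the p38 alpha kinase, fell by 1.62 ± 0.29 at 6 h. Rel at 9 h and 12 h, with 1.77 and 1.47, was not called, and at 9 h it rose under both rescalings, by 2.19 (adjusted p = 0.029) and 2.11 (adjusted p = 0.035).

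**Figure D5:**
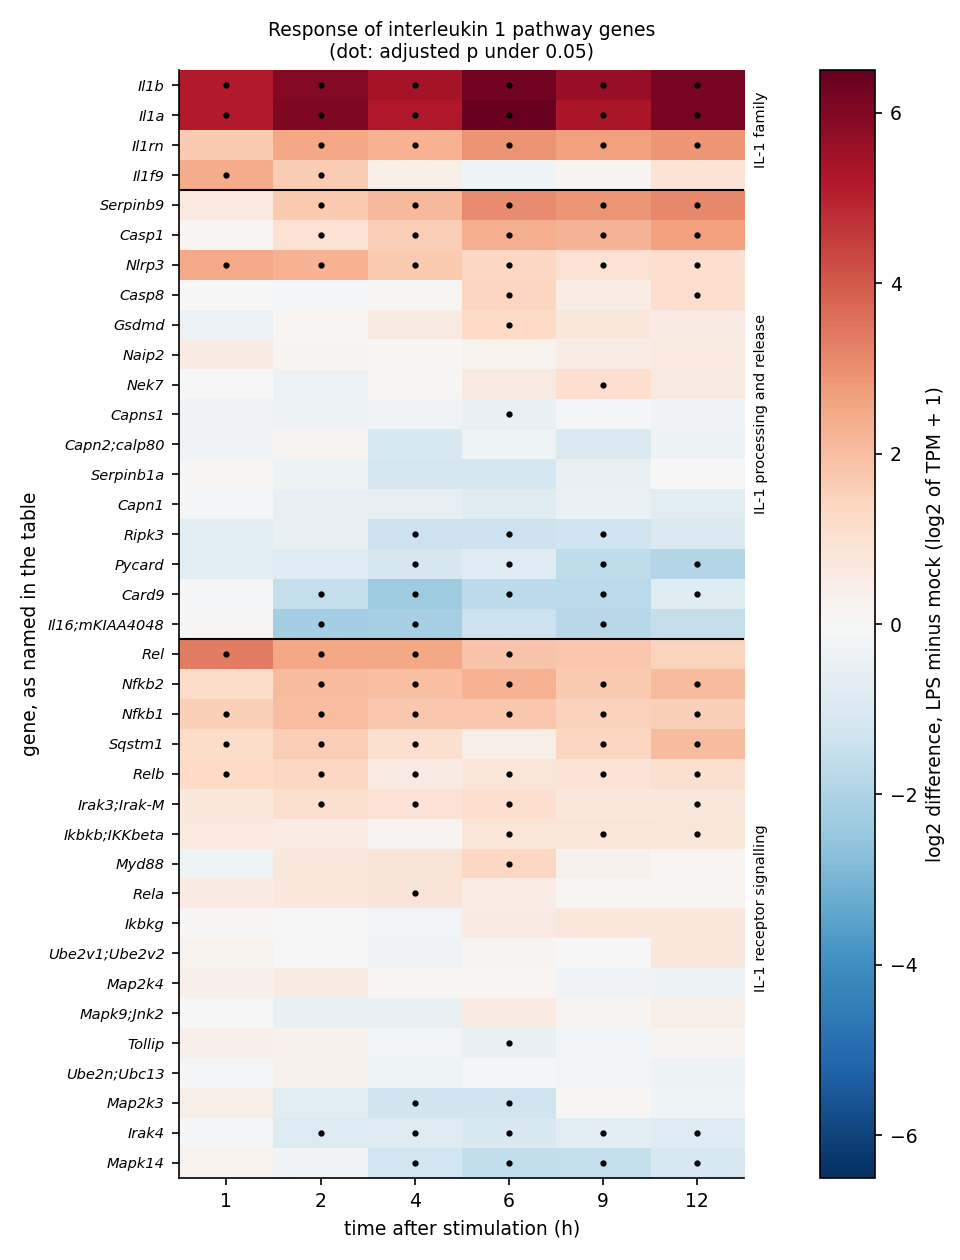
Log2 difference of LPS minus mock by time in hours for the 37 rows with RNA values in the family, processing and receptor signalling lists, red for higher and blue for lower in LPS, with dots where the adjusted p was under 0.05. Il1a and Il1b are the darkest rows at every time, Nlrp3 and Rel are strongest at 1 h, and Casp1 and Serpinb9 are strongest at 12 h.

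Some of these counts moved with the scaling of the libraries. In the deposited values the median log2 difference of LPS minus mock over all genes was -0.46 at 4 h and -0.44 at 6 h. Median-ratio rescaling gave medians of -0.01 and -0.02. After it, 7 genes of the processing list rose and 1 fell at 6 h. In the signalling list 12 rose and 3 fell, while 18.0% of all genes rose and 14.7% fell. With quantile normalization the counts at 6 h were 7 and 2, and 9 and 2, while 14.1% of all genes rose and 16.2% fell. No called gene of these lists changed sign under either. Under both rescalings the falls of Ripk3 at 4 h, 6 h and 9 h, Irak4 at 4 h, 9 h and 12 h, Pycard and Tollip at 6 h, Il16 at 9 h and Card9 and Mapk14 at 12 h were no longer called. Rises called under both rescalings and not in the deposited values were those of Nek7 at 6 h and 12 h, Naip2 and Ikbkg at 6 h, 9 h and 12 h, Map2k4 at 2 h, Mapk9 at 6 h, and Irak3 and Rel at 9 h.

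Of 25 listed regulators of cytokine mRNAs with AU-rich elements, 11 had RNA values. In the deposited values 0 were called at 1 h and 6 h by limma, with 0 and 5 at an unadjusted p under 0.05, beside 3.27% of all genes that rose and 0.794% that fell at 1 h, and 11.2% and 30.0% at 6 h. The count at 6 h depended on the scaling, with 2 that rose after median-ratio rescaling and 1 with quantile normalization. Dcp1a, a decapping cofactor in the row SMIF;Dcp1a, differed by 0.99 ± 0.40 at 6 h in the deposited values (adjusted p = 0.057), and rose under both rescalings, by 1.39 (adjusted p = 0.0089) and 1.55 (adjusted p = 0.0011). It also rose under both at 9 h and 12 h, as did Xrn1, an exonuclease that degrades decapped mRNA, at 4 h. Mapkapk2, the kinase downstream of p38 that stabilises such mRNAs, rose by 1.82 ± 0.47 at 2 h, and at 4 h and 6 h after median-ratio rescaling alone. Khsrp, a decay factor, fell by 1.16 ± 0.42 at 4 h and Elavl1, a stabilising protein, fell by 0.76 ± 0.20 at 12 h, and neither was called after either rescaling. Of the best known member, Zfp36 (tristetraprolin), only footprints at rest were measured, at 35.4 and 37.2 TPM.

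Of 20 listed transcription factors with known roles at interleukin 1 genes, 6 had RNA values, of which 3 rose and 0 fell at 1 h, and 3 rose and 1 fell at 6 h, beside 3.27% and 0.794%, and 11.2% and 30.0%, of all genes. Junb, a subunit of AP-1 in the row AK006748;Junb, rose by 2.25 ± 0.22, Irf4 by 1.59 ± 0.35 and Relb by 1.32 ± 0.17 at 1 h. At 6 h Irf4 fell by 0.94 ± 0.35 (adjusted p = 0.041), which was not called under either rescaling. Stat3, a factor activated by cytokine receptors, was not called at 1 h, with 0.07 ± 0.20, and rose by 1.52 ± 0.20 at 6 h. Cebpb, whose family motif is marked in both promoters, was not called at any time, with differences of -0.24 to 0.73, and rose at 9 h after median-ratio rescaling alone.

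Among 30 listed names of inflammatory mediators, 7 rows had RNA values, and 4 rose at 1 h and 5 at 6 h, beside 3.27% and 11.2% of all genes, and 0 fell at either time. Ptgs2, the inducible cyclooxygenase, rose by 5.21 ± 1.05 at 1 h and 6.25 ± 1.05 at 6 h. Serpinb2, an inhibitor of plasminogen activators, rose by 4.64 ± 0.71 at 1 h and 6.11 ± 0.71 at 2 h, and the difference of 0.83 at 12 h was not called. Ccl5, a chemokine, was not called at 1 h with 1.04 and rose by 6.11 ± 0.40 at 12 h. Sod2, the mitochondrial superoxide dismutase, rose by 0.99 ± 0.15 at 1 h and 2.08 ± 0.15 at 12 h.

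In the RefSeq gene order, the 5 protein-coding genes on each side of the Il1a and Il1b pair included 1 with RNA values. This was Chchd5, a mitochondrial protein gene, at 21.1 to 42.3 TPM in mock and 9.07 to 19.8 TPM in LPS libraries. Its difference at 6 h was -0.98 ± 0.29 (limma, adjusted p = 0.012), beside a median of -0.44 over all genes. Il1rn lies on the same chromosome with 1093 protein-coding genes between it and the pair.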

How the data were processed

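The deposited RNA values of 26 libraries are TPM. The submitters' processing notes name Bowtie 0.12.7, RSEM 1.2.3 and build mm9, and the labels' protocols describe strand-specific libraries of polyadenylated RNA. For the 2 footprint libraries the same notes name TopHat2 and Bowtie2 without versions, and the deposited values were read as TPM from column totals of 1000000. TPM holds no depth, so no counting error or detection limit could be given, and precision rests on the 2 libraries of each group. The 4 h samples' descriptions name hour 5 where title, time field and table say 4, and 4 h was used. The 2 repeated 0 h columns were identical and were used once.

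Values were taken as log2 of TPM plus 1. A filter of 1 TPM in 2 or more libraries kept all 3147 genes. On this scale the change of low genes is understated. limma 3.58.1 in R 4.3.3 fitted 13 group means (13 residual degrees of freedom, variance trend). A gene was called at an adjusted p (Benjamini-Hochberg, all genes) under 0.05. Errors are moderated standard errors. The fit of footprints against 0 h RNA used 2739 shared genes and libraries centred at their median. The Il1b to Il1a ratio was tested by exact permutation within times. The code was tested on simulated data. Alternatives were pseudocounts of 0.1 and 5, no filter, a 10 TPM filter, quantile normalization, median-ratio rescaling, the compared groups alone, a replicate block, no centring, and leaving out each library.

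Members and gene lists were chosen with earlier results of these data known. The naming rule took the members, the 5 genes most correlated with each, the 5 RefSeq neighbours on each side, and the list members with the largest changes. Within lists, genes were also named for their role after their values were seen. List names were matched directly or through RefSeq synonyms. Promoter sequences are from RefSeq, GRCm38.p6, matched for 3 of 3 genes. Figures used matplotlib 3.10.9.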

Additional observations from a re-analysis of the deposited data

How the results depend on the processing

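The rises of Il1a and Il1b under LPS were called at each of 6 times, and those of Il1rn from 2 h on, under every alternative run, including each library left out. Over settings that kept all libraries, the differences were 5.06 to 6.83 for Il1a, 5.10 to 6.68 for Il1b and 1.60 to 3.37 for Il1rn. The labels tie replicate numbers to no shared culture. Same-time LPS and mock libraries deviated together by number, with r of 0.227 to 0.685 across genes, which is a hint from the data and not from the design. With the number as a replicate block, Il1rn was called at 1 h (1.69, adjusted p = 9.1e-06, range over its alternatives 9.1e-06 to 0.30), from 1 h to 2 h (0.83, adjusted p = 0.010, range 0.010 to 0.99) and for late minus early (0.66, adjusted p = 0.012, range 0.012 to 0.64), and Il1b for footprints (0.86, adjusted p = 0.038, range 0.00013 to 0.95). The block changed no other call of these genes.

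Values that were not called could change sign. Median-ratio rescaling gave 0.036 (Il1a) and 0.23 (Il1b) for 2 h to 4 h and -0.045 (Il1a) for 9 h to 12 h of LPS, quantile normalization 0.11 (Il1b) for 9 h to 12 h, a pseudocount of 5 -0.00090 (Il1a) for mock at 2 h, and no centring -0.18 (Il1a) and -0.039 (Il1rn) for footprints. The cause was not tested.

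Leaving out 1 library at a time, LPS steps of Il1a ranged from -0.66 to 0.24 (2 h to 4 h), -0.12 to 0.78 (4 h to 6 h), -1.79 to 0.081 (6 h to 9 h) and -0.93 to 0.94 (9 h to 12 h). Those of Il1b ranged from -0.28 to 0.25, -0.087 to 0.39, -1.07 to 0.080 and -0.58 to 0.56, and those of Il1rn from -0.050 to 0.66, -0.0021 to 0.55, -0.77 to 0.14 and -0.54 to 0.37. Mock minus 0 h ranged for Il1a from -0.24 to 1.00 (1 h), -0.62 to 0.63 (2 h), -1.24 to 0.80 (6 h) and -0.61 to 0.64 (9 h). For Il1b it ranged from -0.69 to 1.12 (2 h), -0.61 to 0.69 (6 h) and -0.24 to 0.52 (9 h). For Il1rn it ranged from -0.13 to 0.55 (1 h), -0.23 to 0.67 (2 h), -0.21 to 0.93 (6 h), -0.11 to 0.79 (9 h) and -0.33 to 0.42 (12 h). Late minus early ranged from -0.32 to 0.62 for Il1a and from -0.072 to 0.83 for Il1b. Footprints minus RNA ranged from 0.10 to 1.21 for Il1a, 0.55 to 1.18 for Il1b and 0.52 to 1.07 for Il1rn, and the log2 ratio of Il1b to Il1a from -0.060 to 0.16.

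The number of all genes called higher in LPS was 103 at 1 h and 21 to 352 over the settings that kept all libraries, 201 (141 to 346) at 2 h, 275 (270 to 445) at 4 h, 353 (270 to 568) at 6 h, 318 (149 to 508) at 9 h and 315 (262 to 526) at 12 h. With 2 libraries a group and no read counts, small differences could not be resolved.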

Other observations

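Resting footprints were measured for further genes of the pathway whose RNA was not analysed here. Among receptors, Il1r2, the decoy receptor of interleukin 1, had 48.3 and 37.8 TPM in replicates 1 and 2, and Il1rap, the partner chain of the signalling receptor, 16.1 and 13.7 TPM. Il1rl1, the receptor of interleukin 33, had 14.6 and 14.0 TPM and Il1rl2, the receptor of the interleukin 36 group, 11.8 and 13.1 TPM. Il1r2 footprints were thus near those of Il1a itself, at 37.7 and 61.1 TPM, and the ranges overlapped.

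Among genes of processing and release, Txnip, a thioredoxin inhibitor, had 566 and 533 TPM of footprints, above the 241 and 248 TPM of Il1rn. P2rx7, the ATP-gated channel that triggers inflammasome assembly, had 33.2 and 30.5 TPM, and Ninj1, which ruptures the membrane of dying cells, 85.8 and 67.3 TPM. The inflammasome sensors Aim2 and Nlrc4 had 12.1 and 17.6 TPM and 4.29 and 5.82 TPM. Among inhibitors of NF-kB signalling, Nfkbia had 258 and 239 TPM and Tnfaip3 19.9 and 20.3 TPM. No stimulated footprint libraries were analysed here, so these values describe resting cells only.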
